A study of Homo sapiens with 9 samples.

Results

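EGR1, FOS and DUSP1 were followed in SH-SY5Y cells, a human neuroblastoma line, given thapsigargin, tunicamycin or the vehicle DMSO. The genes were chosen by the IDs of their Illumina probes as immediate early genes, and selected on the low EGR1 intensity under the drugs relative to DMSO, with earlier results of these data known. Of 5 probe IDs in that choice, 3 were on the array, for EGR1 (ILMN_1762899), FOS (ILMN_1669523) and DUSP1 (ILMN_1781285), among 22184 probes in all. The 2 IDs given for FOSB and JUN (ILMN_1751607 and ILMN_1806023) were not in the tables. Other probes of both genes were, and are described below with the wider gene lists. For that reason differences of the 3 genes from DMSO are given as a description with no p-value.

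Immediate early genes are transcribed within minutes of a stimulus from factors already present in the cell, without new protein synthesis. Growth factors, serum and calcium act on them through the ERK, p38 and JNK branches of the MAP kinase cascade, which activate SRF with its ternary complex factors, CREB and AP-1. Their transcripts are short-lived, so that levels follow current transcription closely, and products such as DUSP1 and the Sprouty proteins close a negative feedback loop on the same kinases.

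Thapsigargin blocks SERCA, the pump that fills the endoplasmic reticulum (ER) with calcium, and tunicamycin stops sugar chains from being built for N-linked glycosylation. Both leave unfolded protein in the ER. All cells, DMSO controls included, were grown in DMEM/F12 medium with fetal bovine serum. Each treatment had 3 labelled samples of biotin-labelled cRNA on 1-colour bead arrays, and neither dose nor duration is stated in the labels. Nothing states that samples came from separate cultures, so errors measure the spread between these arrays, which may be technical.

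Not all 9 deposited columns were separate arrays. Those of thapsigargin replicates 1 and 3, tunicamycin replicates 1 and 2 and DMSO replicate 1 were single arrays. The other 4 were weighted means that contained them, and 2 of these, tunicamycin replicate 3 and DMSO replicate 3, hid 1 further array each, which could be computed back and is called a recovered array below. Values thus rest on 2 thapsigargin arrays, 2 tunicamycin arrays and 1 DMSO array, with the recovered arrays beside them. Per array, 12296 to 12737 probes were detected, that is, had a detection p-value below 0.05 against the negative controls. The number of arrays limits the precision.

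The drugs had acted on the 4 single drug-treated arrays. Of 20 probes for 19 ER stress genes, 19 rose with thapsigargin and 19 with tunicamycin (limma, Benjamini-Hochberg adjusted p below 0.05). Of all probes kept after the filter on detection, 12.2% rose with thapsigargin and 17.2% with tunicamycin. Among the 20 ER stress probes, 16 were detected on all 5 single arrays. Those of DNAJC3, SEL1L, CHAC1 and SESN2 were not detected in DMSO. They passed the filter through drug-treated arrays only, so their rise is no separate support. HSPA5, the ER chaperone BiP, gave intensities of 2563 and 2009 with thapsigargin, 4456 and 4617 with tunicamycin and 563 on the DMSO array. On the recovered tunicamycin array it was at 479, below DMSO, so that array did not show this response. Of 10 probes for noradrenergic neuroblastoma markers, 9 were detected on all 5 single arrays, among them DBH and PHOX2A, and that of HAND2 on none. Of these 9, 3 fell with thapsigargin and 6 with tunicamycin by limma, where 13.3% and 18.8% of all kept probes fell.

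Markers of other cell types were read too. Of 7 mesenchymal probes, 3 were detected on all 5 single arrays, the brightest for DCN (decorin) at 787 and 681 with thapsigargin, 665 and 684 with tunicamycin and 1007 in DMSO. The deposited intensities of the 7 probes summed to 1522 and 1294 with thapsigargin, 1244 and 1349 with tunicamycin, 1844 on the DMSO array and 1914 on the recovered one. Of the 5 that were kept, 2 fell with thapsigargin and 3 with tunicamycin by limma, against 13.3% and 18.8% of all kept probes. COL1A2, counted with both drugs, was detected in DMSO alone among the 5 single arrays, so the filter on detection fixed its direction. Of 5 epithelial probes 3 were kept, and EPCAM rose with both drugs, with log2 changes of 0.51 for thapsigargin and 0.32 for tunicamycin (limma adjusted p = 0.00828 and 0.0345). Both endothelial probes were kept and neither was called, and 4 of 5 immune probes were detected on none of the 5 arrays. Sums over the epithelial probes (343 to 404 with thapsigargin, 367 to 396 with tunicamycin, 398 in DMSO), the immune probes (290.4 to 321 with thapsigargin, 298 to 322 with tunicamycin, 324 in DMSO) and the endothelial probes (148 on both arrays with thapsigargin, 126 to 155 with tunicamycin, 159 in DMSO) lay closer together. These sums were not normalized, and mean intensity over all probes was itself lower on the single drug-treated arrays (318 to 391, against 410 in DMSO). The part of these markers in the results below was not tested.

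Promoters of the 3 genes are shown because EGR1, FOS and DUSP1 are known targets of SRF or CREB. The part of SRF or CREB in their levels was not tested. The 250 bases before the RefSeq start (GRCh38.p14) were read for all 3 genes and searched on both strands. Capitals mark CArG boxes, the element bound by SRF, and the letters TGACG or their complement CGTCA, the core of the CREB site.
EGR1 (chr5:138465229-138465478, plus strand): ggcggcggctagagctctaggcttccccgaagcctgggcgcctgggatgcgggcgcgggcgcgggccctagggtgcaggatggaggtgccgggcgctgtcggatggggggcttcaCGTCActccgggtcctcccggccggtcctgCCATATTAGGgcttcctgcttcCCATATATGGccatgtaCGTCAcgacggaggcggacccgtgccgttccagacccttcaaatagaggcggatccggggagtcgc
FOS (chr14:75278578-75278827, plus strand): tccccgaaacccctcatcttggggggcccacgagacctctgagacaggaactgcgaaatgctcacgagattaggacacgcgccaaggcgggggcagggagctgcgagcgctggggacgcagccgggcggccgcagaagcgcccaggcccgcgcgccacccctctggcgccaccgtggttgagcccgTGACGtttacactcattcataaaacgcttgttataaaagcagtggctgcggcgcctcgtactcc
DUSP1 (chr5:172771196-172771445, minus strand): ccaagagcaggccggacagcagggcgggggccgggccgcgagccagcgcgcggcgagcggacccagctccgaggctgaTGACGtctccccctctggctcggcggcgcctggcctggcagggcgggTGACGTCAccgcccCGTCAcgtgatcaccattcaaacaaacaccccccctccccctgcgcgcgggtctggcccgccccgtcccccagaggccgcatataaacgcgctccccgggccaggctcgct

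The EGR1 window held 2 CArG boxes, at bases -105 to -96 and -83 to -74 from the start. Of 35116 promoter windows of this length, 1.16% held at least 1 CArG box and 0.0313% held 2 or more. The letters TGACG matched 2 times in EGR1, 1 time in FOS and 4 times in DUSP1, against at least 1 match in 21.2% of all windows. In DUSP1, 2 of these matches overlapped as the full site TGACGTCA at -125 to -118, which 1.65% of windows held. No CArG box lay in the FOS and DUSP1 windows. Bases further upstream were not searched, so a CArG box there would have been missed. Neither TGACTCA, an AP-1 site, nor CCGGAA, a longer and stricter form of the Ets site, lay in any of the 3. The shorter Ets core GGAA, or its complement TTCC, was not counted. TTCC does stand between the CArG boxes of the EGR1 window, so an Ets core beside them is not excluded. These matches are letters in a window, and no binding was measured here.

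EGR1, a zinc-finger transcription factor and the best known member of the family, stood furthest from DMSO. Its intensity was 73.7 and 64.8 on the thapsigargin arrays, 70.5 and 72.2 on the tunicamycin arrays and 285 on the DMSO array. The recovered DMSO array gave 275. All 4 single drug-treated arrays were thus far below both DMSO arrays, which restates the property EGR1 was chosen for. The share of all probes that separate in this way was not counted. The recovered tunicamycin array, described below, gave 257 and lay near DMSO.

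Detection p-values for EGR1 were 0.0636 and 0.0791 with thapsigargin, 0.0438 and 0.0862 with tunicamycin and 0 on both DMSO arrays. The probe missed the threshold of 0.05 narrowly on both thapsigargin arrays, where it was still brighter than most negative controls, and was detected on 1 of 2 tunicamycin arrays and on both DMSO arrays. In rank, 40.3% to 41.0% of probes were dimmer than EGR1 with thapsigargin, 39.0% and 43.9% with tunicamycin, and 74.7% on the DMSO array.

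**Figure D1:**
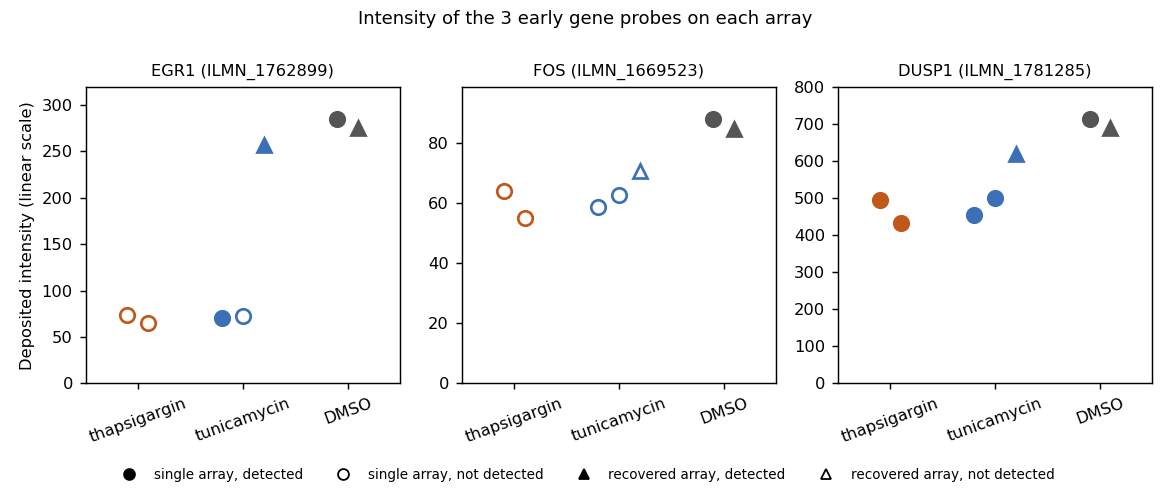
Deposited intensity (linear scale, from 0) of the EGR1, FOS and DUSP1 probes on each array, by treatment. Filled symbols are arrays where the probe was detected, open symbols arrays where it was not, and triangles recovered arrays. EGR1 lies between 64.8 and 73.7 on the 4 single drug-treated arrays and at 285 and 275 in DMSO, where the recovered tunicamycin array (257) also sits.

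On the normalized scale, log2 intensity after background correction with neqc, EGR1 averaged 5.04 ± 0.014 with thapsigargin, 5.07 ± 0.114 with tunicamycin (SD, n = 2 each) and 7.77 on the DMSO array. The log2 change was -2.73 with thapsigargin and -2.70 with tunicamycin, each with an SE of 0.102 from the fit across all probes. Against thapsigargin, whose signal was not well above background, DMSO was at least 6.22-fold brighter, a bound that holds for neqc values. With tunicamycin the fold was 6.49, with 1 of 2 arrays detected.

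EGR1 was among the 12989 probes kept after the filter on detection through its DMSO value only, so it had to be lower elsewhere. Its fitted change lay in the lowest tail of kept probes with both drugs, which is the property it was chosen for. It was at least 2-fold lower with each drug and DUSP1 was not, while for FOS the bounds below leave this unknown. At least 2-fold lower were 1.08% of kept probes with thapsigargin and 1.85% with tunicamycin. Its size depends on the background correction: normexp (offset 50) gave -1.75 for thapsigargin and -1.73 for tunicamycin on the log2 scale.

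FOS, the AP-1 subunit that pairs with JUN, was near the detection limit even in DMSO. Its intensity was 63.9 and 55.0 with thapsigargin, 58.5 and 62.8 with tunicamycin, 88.0 on the DMSO array and 84.7 on the recovered DMSO array. The drug-treated arrays lay below both DMSO arrays, but the whole range is narrow. How many of all probes do the same was not counted. Detection p-values were 0.202 and 0.292 with thapsigargin, 0.226 and 0.246 with tunicamycin and 0.0212 in DMSO, so FOS was detected in DMSO alone and passed the filter only there.

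A probe that passes through its DMSO value had to be lower elsewhere, so the direction of FOS carries little. The fitted log2 change was -0.66 with thapsigargin and -0.67 with tunicamycin, each with an SE of 0.089. As FOS was not detected with either drug, the bounds apply: DMSO was at least 1.24-fold brighter than thapsigargin and at least 1.25-fold brighter than tunicamycin. At a detection threshold of 0.01, FOS was not kept.

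DUSP1, a nuclear phosphatase that switches off JNK, p38 and ERK, was the one gene measured well above background in all groups, with a detection p-value of 0 on each array. Its intensity was 494 and 433 with thapsigargin, 454.5 and 501 with tunicamycin, 714 on the DMSO array and 690 on the recovered DMSO array. Drug-treated arrays were again all below DMSO in raw intensity. Their mean intensity over all probes was lower too, at 318 to 391 on the single drug-treated arrays against 410 on the DMSO array. The normalized log2 intensity averaged 8.78 ± 0.092 with thapsigargin, 8.80 ± 0.00080 with tunicamycin (SD, n = 2 each) and 9.23 on the DMSO array.

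The log2 change of DUSP1 was -0.45 with thapsigargin and -0.43 with tunicamycin, each with an SE of 0.097, or 1.37-fold and 1.34-fold in that order. Both DMSO arrays differed by 0.080 on the log2 scale when normalized together. Set against the recovered DMSO array alone, the thapsigargin change was -0.37. A change this low or lower was found at 8.24% of kept probes with thapsigargin and 12.7% with tunicamycin, so DUSP1 lay well inside the distribution, unlike EGR1.

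**Figure D2:**
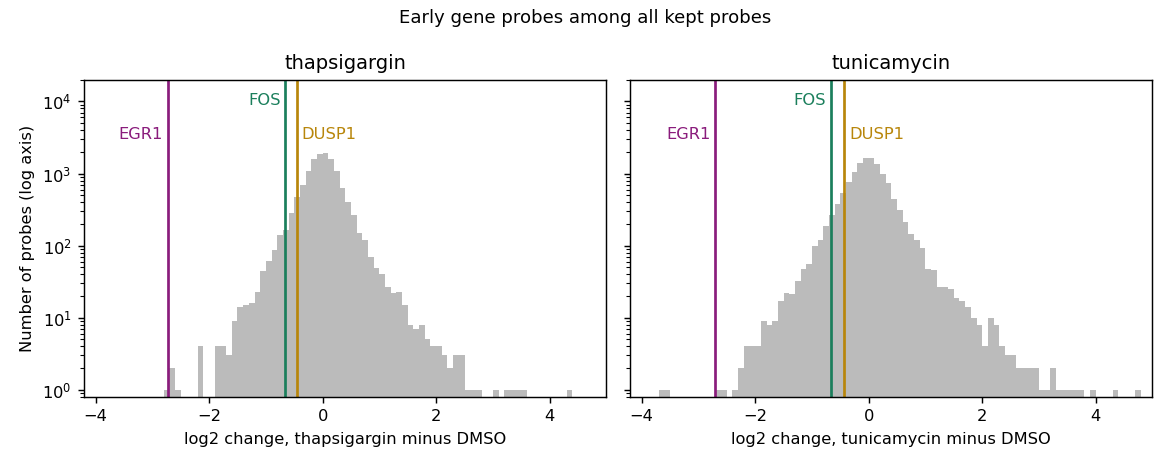
Histograms of the log2 change of all 12989 kept probes (x axis; bins of 0.1) for thapsigargin minus DMSO on the left and tunicamycin minus DMSO on the right, with the number of probes on a log axis. Vertical lines mark EGR1 at -2.73 and -2.70, in the far lower tail, FOS at -0.66 and -0.67, and DUSP1 at -0.45 and -0.43, inside the bulk.

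All 3 genes were thus lower with each drug, where 50.4% of kept probes were lower by any amount with thapsigargin and 51.3% with tunicamycin. The filter fixed that direction for EGR1 and FOS, and the choice of genes used the same comparison, so nothing is read from the count. Both comparisons use the same DMSO array, so the like values of the drugs are not separate observations. Whether there was less transcript per cell or fewer cells expressing it cannot be told apart in bulk RNA.

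The levels were then compared between the drugs, a contrast that does not use DMSO. Across kept probes, 10.3% differed (limma adjusted p below 0.05), and none of the 3 genes did. For DUSP1, the log2 difference, thapsigargin minus tunicamycin, was -0.03 with a 95% interval of -0.21 to 0.16 (limma adjusted p = 0.863), which leaves room for a difference of about that size in either direction. EGR1 was detected on none of the thapsigargin arrays and on 1 of 2 tunicamycin arrays, and FOS on none of either, so no fold between the drugs is given for them; their adjusted p-values by limma were 0.838 and 0.963. EGR1 and FOS were highest in DMSO, which the filter had fixed. At or near background with both drugs, they could hardly show a difference between the drugs, so nothing is read from these p-values. DUSP1 was also highest in DMSO among the single arrays, and its levels did not differ between the drugs beyond their spread.

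The recovered tunicamycin array stood apart from the other 2 of its label. EGR1 had an intensity of 257 there and a detection p-value of 0, near the DMSO arrays. DUSP1 was at 618, between the other tunicamycin arrays and DMSO in raw intensity. Normalized together, this array was 0.02 above the DMSO mean for EGR1 and 0.05 above it for DUSP1 on the log2 scale. FOS, at 70.6 with a detection p-value of 0.102, was not detected on it. Its value lay 0.46 below the DMSO mean, which was itself near the detection limit, so little is read from that distance.

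The deposited columns carry this array in part. The deposited EGR1 intensity was 118 for tunicamycin replicate 3, against 70.5 and 72.2 for replicates 1 and 2, and 119 against 74.8 and 69.2 in the authors' normalized table. With both recovered arrays in the fit, the log2 difference between the drugs for EGR1 widened to -0.93 (limma adjusted p = 0.893). The log2 change of DUSP1 with tunicamycin was then -0.24.

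FOSB and JUN could be read from other probes, named here because both genes were in the original choice. FOSB (ILMN_1730706), another Fos-family partner of JUN, gave 60.1 and 60.7 with thapsigargin, 56.7 and 65.1 with tunicamycin and 62.0 in DMSO, and was detected on none of the 7 arrays. JUN (ILMN_1669768) was detected on all 5 single arrays. Its intensity was 142 and 138 with thapsigargin, 177 and 189 with tunicamycin, 125 on the DMSO array and 125 on the recovered DMSO array.

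JUN moved the other way from EGR1. It rose with tunicamycin by 0.91 on the log2 scale (SE 0.132, limma adjusted p = 0.00191) and its change with thapsigargin was 0.43 (adjusted p = 0.0523), which passed the threshold under 12 of 17 alternatives. Thapsigargin minus tunicamycin was -0.48 (adjusted p = 0.0354 by limma).

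The wider family was read from gene lists, each gene matched through the platform's annotation, and counts below leave out EGR1, FOS and DUSP1. All counts are limma calls on the 5 single arrays. With both recovered arrays added, no probe of any gene was called with tunicamycin, and 5 rose and 0 fell with thapsigargin (2722 at an unadjusted p below 0.05, and 1975 with tunicamycin), and no gene named below for a change of at least 2-fold kept its call. That fit places the recovered tunicamycin array, which lay near DMSO, among the tunicamycin arrays.

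Of 17 kept probes for immediate early transcription factors, 1 rose and 4 fell with thapsigargin, where 12.2% of all kept probes rose and 13.3% fell (1590 and 1733 probes, or 1109 and 2124 with arrays only centred on their medians). With tunicamycin 5 rose and 2 fell, against 17.2% and 18.8% of kept probes. The median log2 change was -0.03 with thapsigargin and 0.03 with tunicamycin, against 0.00 and -0.01 over all kept probes. The list as a whole was not lower: EGR1 was its lowest member, and 12 of its 31 probes, those of JUNB, EGR3, KLF2, KLF4, NPAS4 and NR4A2 among them, were detected on none of the 5 arrays.

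ATF3, a factor of both the early response and the ER stress response, rose most. It gave 356 and 293 with thapsigargin, 654 and 772 with tunicamycin and 187 in DMSO. The log2 change was 1.17 with thapsigargin (limma adjusted p = 0.000247) and 2.39 with tunicamycin (adjusted p = 8.62e-06). KLF10, a TGF-beta induced early factor, rose with tunicamycin by 1.19 at ILMN_1659122 (adjusted p = 0.00187 by limma); with thapsigargin the change there was 0.46 (adjusted p = 0.0932), called under 8 of 17 alternatives. The other KLF10 probes differed in size, with log2 changes under tunicamycin of 0.81 at ILMN_1720080 (called) and 0.22 at ILMN_1667594 (not called).

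MYC and BHLHE40 fell. MYC, a growth-promoting factor, gave 1218 and 1079 with thapsigargin, 663 and 697 with tunicamycin and 2023 in DMSO, log2 changes of -0.63 (limma adjusted p = 0.00567) and -1.44 (adjusted p = 0.000106). The recovered DMSO array, at 1735, lay nearer to thapsigargin, and taken instead of replicate 1 it left MYC at -0.34 with thapsigargin (adjusted p = 0.0501 by limma). BHLHE40, a transcriptional repressor, had log2 changes of -0.89 with thapsigargin and -1.25 with tunicamycin (adjusted p = 0.000928 and 0.00013 by limma).

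Feedback inhibitors of MAP kinase signalling, the group to which DUSP1 belongs, were counted in the same way. Of 13 kept probes other than DUSP1, 6 fell and 1 rose with thapsigargin, where 13.3% of all kept probes fell and 12.2% rose. With tunicamycin 5 fell and 2 rose, against 18.8% and 17.2% of all kept probes. The median log2 change was -0.25 with thapsigargin and -0.22 with tunicamycin. The count of falls with thapsigargin ranged from 3 to 7 over the alternatives that did not add the recovered tunicamycin array or the computed columns.

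SPRY1, a Sprouty inhibitor of receptor signalling to Ras, was lowest. Its probe ILMN_1691860 gave 85.1 and 80.8 with thapsigargin, 69.9 and 79.7 with tunicamycin, 187 on the DMSO array and 196 on the recovered one. The log2 change was -1.56 with thapsigargin (limma adjusted p = 0.000157) and -1.87 with tunicamycin (adjusted p = 3.75e-05). The other 2 SPRY1 probes were detected on none of the 5 arrays.

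DUSP6, the cytoplasmic phosphatase specific for ERK and a common readout of its activity, gave 281 and 182 with thapsigargin, 143 and 164 with tunicamycin and 411 in DMSO. Its log2 change was -0.79 with thapsigargin (limma adjusted p = 0.0111) and -1.54 with tunicamycin (adjusted p = 0.000447), a difference between drugs of 0.75 (adjusted p = 0.0161). SPRY2 gave 294 and 215 with thapsigargin, 210 and 232 with tunicamycin and 518 in DMSO, log2 changes of -0.97 and -1.22 (adjusted p = 0.00103 and 0.000234 by limma). Phosphatases did not all go one way: DUSP4 rose with both drugs at ILMN_1734387, by 0.46 and 0.34 on the log2 scale in that order (adjusted p = 0.0152 and 0.0365 by limma); DUSP4 was picked after its values were seen.

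**Figure D3:**
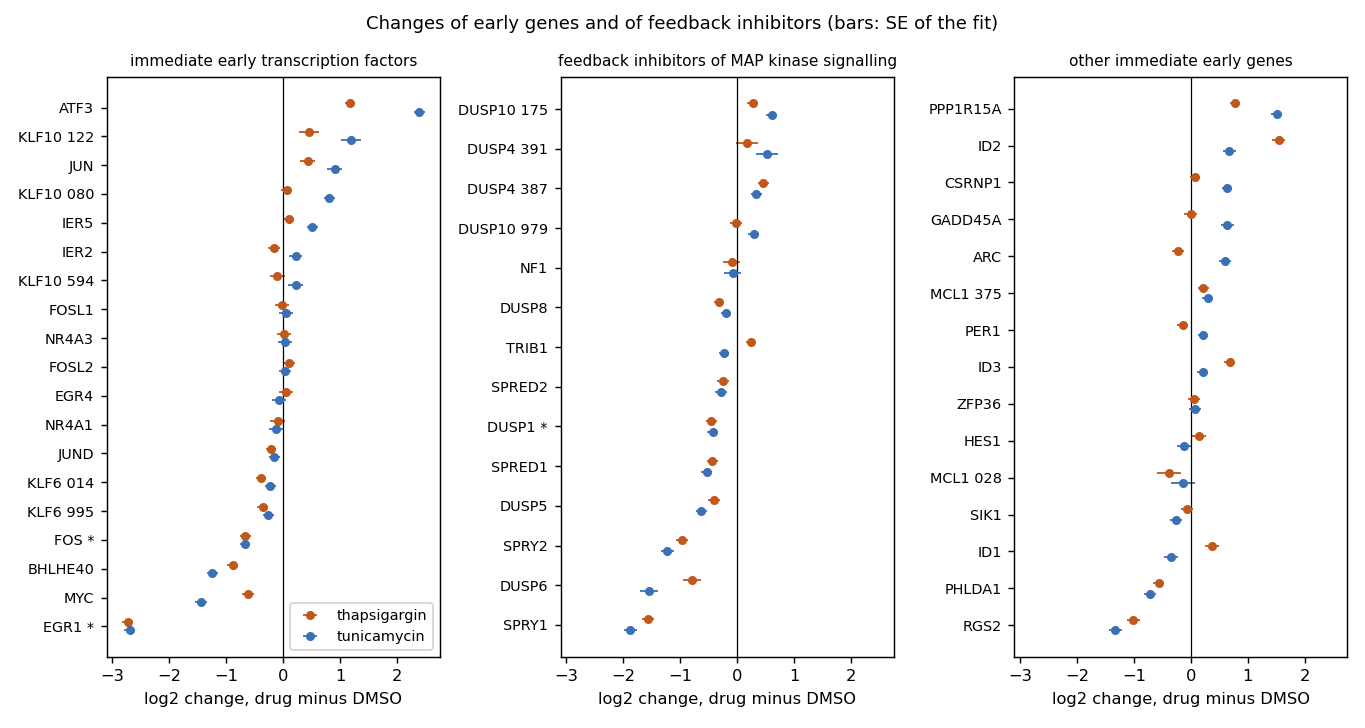
Log2 change against DMSO (x axis) of each kept probe of 3 gene lists, thapsigargin in orange above tunicamycin in blue, with bars for the SE of the fit. Asterisks mark EGR1, FOS and DUSP1, and digits after a name are the end of the probe ID where a gene had several. EGR1 lies far left of all others, MYC, BHLHE40, SPRY1, DUSP6 and SPRY2 lie to the left, and ATF3, JUN, KLF10 and PPP1R15A to the right.

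Among 15 kept probes of other immediate early genes, 3 rose and 2 fell with thapsigargin, shares near the 12.2% and 13.3% of all kept probes. With tunicamycin 6 rose and 2 fell, against 17.2% and 18.8%. CSRNP1, counted among these rises, was not detected in DMSO and was kept through tunicamycin only, so the filter fixed its direction. PPP1R15A (GADD34), which restores translation after ER stress, gave 957 and 799 with thapsigargin, 1368 and 1476 with tunicamycin and 605 in DMSO, log2 changes of 0.77 and 1.51 (limma adjusted p = 0.00128 and 4.22e-05). ID2, an inhibitor of basic helix-loop-helix factors, rose more with thapsigargin, by 1.54 against 0.68 with tunicamycin, a difference of 0.87 (adjusted p = 0.00296 by limma). The tunicamycin change of ID2 was no longer called with the recovered DMSO array in the fit, alone or beside replicate 1, since that array read 293 against 209 on replicate 1.

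RGS2, a regulator that turns off Gq-coupled receptors, gave 81.6 and 75.8 with thapsigargin, 64.5 and 76.4 with tunicamycin and 130 in DMSO. It fell by 1.01 on the log2 scale with thapsigargin (limma adjusted p = 0.000892). With tunicamycin it was not detected, at least 2.35-fold below DMSO (adjusted p = 0.00017 by limma).

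Kinases and factors that act upstream of early genes, SRF among them, were read at 18 kept probes. With thapsigargin 2 rose and 1 fell, against 12.2% and 13.3% of all kept probes, but 0 rose without thapsigargin replicate 1, and 1 rose and 0 fell without thapsigargin replicate 3. With tunicamycin 4 rose and 1 fell, against 17.2% and 18.8%. The RPS6KA2 probe ILMN_1790801, counted as a rise with both drugs, was not detected in DMSO. It was kept through the drug-treated arrays only, so the filter fixed its direction. The median log2 change was 0.03 with thapsigargin and 0.02 with tunicamycin. SRF had a log2 change of 0.06 with thapsigargin and 0.03 with tunicamycin (limma adjusted p = 0.649 and 0.855), and MAPK3, which encodes ERK1, 0.02 and 0.00 (adjusted p = 0.923 and 0.986); both were picked after their values were seen. The arrays measure transcripts and carry no information on kinase activity.

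Receptors and adaptors that feed the cascade fell at 8 of 20 kept probes with thapsigargin, with 0 rises, where 13.3% of all kept probes fell. They fell at 7 with tunicamycin, with 1 rise, where 18.8% of all kept probes fell. Over the alternatives that did not add the recovered tunicamycin array or the computed columns, 5 to 9 fell with thapsigargin and 5 to 7 with tunicamycin. These counts are of probes and not of separate genes. RET, the receptor for GDNF-family ligands, fell at each of its 3 probes with both drugs. Log2 changes were -1.87, -1.88 and -2.19 with thapsigargin and -0.99, -1.46 and -1.46 with tunicamycin (limma adjusted p from 2e-05 to 0.000329). The probe with the largest fall, ILMN_1706301, gave 174 and 149 with thapsigargin, 236 and 252 with tunicamycin, 680 on the DMSO array and 670 on the recovered one. All 3 were lower with thapsigargin than with tunicamycin, with log2 differences of -0.89, -0.42 and -0.73 in that order (adjusted p = 0.00143, 0.041 and 0.00258 by limma).

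PDGFRA, a platelet-derived growth factor receptor, had log2 changes of -0.98 with thapsigargin and -1.38 with tunicamycin (adjusted p = 0.000699 and 9.8e-05 by limma). IRS2, which carries the signal of the insulin receptor and was named after its values were seen because the series concerns insulin signalling, fell by 0.58 and 0.45 in that order (adjusted p = 0.00628 and 0.0126 by limma). The insulin receptor itself, INSR, had log2 changes of -0.21 and -0.06 (adjusted p = 0.235 and 0.746 by limma).

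The probes most like each gene were found by the root-mean-square difference of log2 profiles over 7 arrays, each profile centred on its own mean, among 12620 probes kept on those arrays. This is a description of arrays that share their treatments, with no test. Nearest to EGR1 were CRABP2, a retinoic acid binding protein, at 0.227, NNAT (neuronatin) at 0.269 and TNFAIP6 at 0.304. CRABP2 gave 205 and 159 with thapsigargin, 217 and 250.1 with tunicamycin and 1100.0 in DMSO, and 955 on the recovered tunicamycin array. All 3 were high on that array, as EGR1 was.

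**Figure D4:**
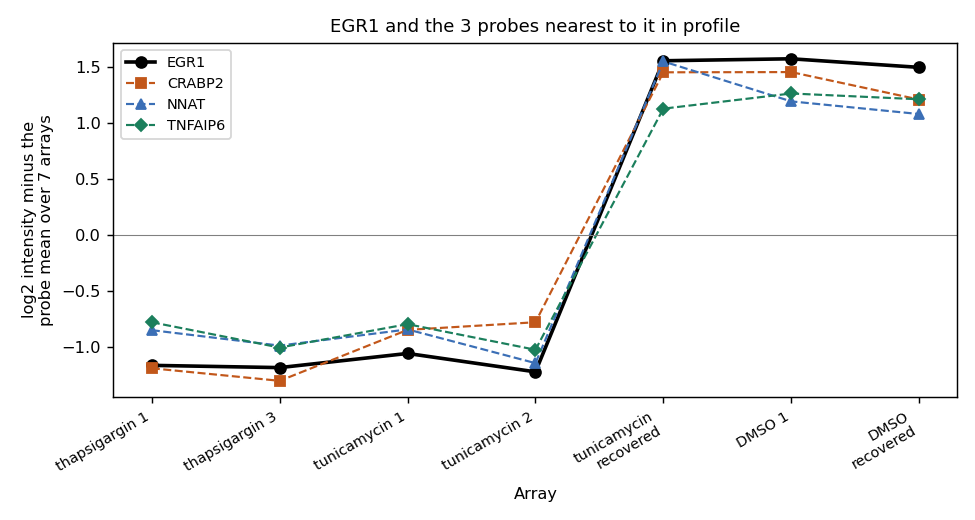
Log2 intensity of EGR1 and the 3 probes with the most similar profile (CRABP2, NNAT and TNFAIP6), each minus its own mean over 7 arrays (y axis), by array (x axis). All are low on the 4 single drug-treated arrays and high on both DMSO arrays and the recovered tunicamycin array; CRABP2 is nearest to EGR1, at a root-mean-square difference of 0.227.

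Nearest to FOS were a probe without a gene symbol here, ILMN_1726704, at 0.048, OTULIN at 0.070 and CDC25C at 0.072, and nearest to DUSP1 were CENPB at 0.031, ILMN_1783832 at 0.034 and MRPS6 at 0.034. None of these 9 neighbours was on the lists of early genes. Among the 3 genes themselves, FOS and DUSP1 were closest, at 0.169, while EGR1 differed from them by 1.10 and 1.13 through the size of its change. The EGR1 and DUSP1 profiles had a Pearson's r of 0.979 over the 7 arrays, which fall into 2 separate sets, so this value reflects the distance between those sets.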

How the data were processed

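The members and gene lists were chosen with earlier results of these data known. The deposited table held an intensity per probe on a linear scale, not normalized per the file headers, and a detection p-value beside each. The second deposited table held intensities whose sorted columns were identical, that is, quantile-normalized by the authors. Scanner software and array handling are not stated in the labels.

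Column means were checked (largest relative deviation 1.52e-07 for DMSO replicate 2, 9.76e-08 for thapsigargin replicate 2). DMSO replicate 3 held 0.75 of replicate 1, and tunicamycin replicate 3 held 0.5 of replicate 1 and 0.25 of replicate 2; the remaining 0.25 of each gave the recovered arrays. Detection p-values were matched to each of the 7 arrays by rank order, with 0 breaks, against at least 631 for columns of other values (those under DMSO replicate 1 repeat tunicamycin replicate 2).

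Intensities were processed with neqc (offset 16) in limma 3.58.1 (R 4.3.3) to log2 values. Probes detected on every array of at least 1 group were kept (12989) and fitted with lmFit and eBayes, on 2 residual degrees of freedom, with the lone DMSO array assumed to vary like the others. P-values are two-sided and adjusted over all kept probes. Where a group was not detected, a fold bound used the lowest detected signal per array. On 10 simulated sets of 12989 probes, 95.9% of changes of 0.5 on the log2 scale between the drugs were recovered. The simulated spread was taken from the same fit, so this share holds only as far as that spread does. Of 22184 probes, 19715 had 1 gene symbol in the platform annotation and 2469 none, and symbols were updated through RefSeq gene IDs. Named list genes changed at least 2-fold with either drug, at most 8 a list; of ER stress genes only HSPA5 is described. Figures were drawn with matplotlib 3.10.9 in Python 3.11.15.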

Additional observations from a re-analysis of the deposited data

How the results depend on the processing

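EGR1, FOS and DUSP1 were lower than DMSO with both drugs under every alternative in which they were kept, but wherever the filter is used it fixes that direction for EGR1 and FOS, which passed it through DMSO, so for them this is no support. Only 2 of the 3 were kept and lower at a detection p below 0.01, where FOS dropped out, and 1 with all 9 columns taken as independent (with normexp, since neqc needs p-values that belong to their columns), where the p-values deposited under DMSO replicate 1 are those of tunicamycin replicate 2 and both EGR1 and FOS failed the filter. Over the alternatives, the log2 change with thapsigargin ranged from -2.79 to -1.75 for EGR1, -0.69 to -0.41 for FOS and -0.57 to -0.37 for DUSP1, and with tunicamycin from -2.78 to -1.73, -0.68 to -0.42 and -0.51 to -0.24. None of the 3 was called between the drugs under any alternative (lowest limma adjusted p 0.204). The count of probes called between the drugs, 1340, was 2475 with normexp, 2351 without background correction, 2339 with the authors' normalized values, 2109 at a detection p below 0.01, 2698 with trended robust variances, 5440 with all 9 columns, 8 with both recovered arrays (937 at an unadjusted p below 0.05) and 180 to 534 without 1 drug array. With the replicate number as a block and the recovered DMSO array added it was 25, against 1819 without the block; deviations of same-numbered arrays correlated at -0.168, -0.0349 and 0.104, so the numbers were not taken as pairs. With the DMSO numbers crossed, chosen after seeing the data, it was 1150. Probes called with thapsigargin, 3323, were 2093 to 3129 without 1 drug array, 8105 with all 9 columns and 5 with both recovered arrays; with tunicamycin, 4681 became 8545 and 0. The causes were not tested. The DMSO group is 1 array, and signals of EGR1 and FOS under the drugs are limited by background.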

Other observations

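The detection p-values deposited under thapsigargin replicate 1 match no signal column. They were 0 for EGR1, 0.0381 for FOS and 0 for DUSP1, so EGR1 and FOS would be detected on the array behind them, while neither was on the 2 thapsigargin arrays. Those deposited under DMSO replicate 1 were 0.0862 for EGR1 and 0.246 for FOS, equal to tunicamycin replicate 2; read as they stand, they would call EGR1 undetected in a DMSO sample whose intensity was 285.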
